A study of Mus musculus with 4 samples.

Results

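The Krueppel-like factor genes *Klf2*, *Klf3*, *Klf4*, *Klf6*, *Klf7*, *Klf10* and *Klf13* were followed across 4 myeloid populations of EO771 tumours, a mouse model grown from the mammary carcinoma line EO771. They were taken by symbol from a list of 7, and all 7 were present among the 13976 genes of the expression table. The populations, with the names of the labels first, were CD103intCD11b+DC (CD103int DC below), CD103+cDC1 and CD11b+cDC2 (type 1 and type 2 conventional dendritic cells, DC) and macrophages, each with 1 bulk RNA sequencing library. The labels give the tumour and the population, but not the mouse strain or age, the gates, the number of mice or cells behind a library, or whether the mice had received the heterodimeric interleukin-15 named in the title. The library kit keeps strand (directional) and total RNA was the input.

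Krueppel-like factors (KLF) are transcription factors that bind CACCC boxes and other GC-rich DNA through zinc fingers at the end of the protein, and the related Sp factors bind similar letters. Some members activate and others repress, in part by recruiting the corepressor CtBP. In mouse myeloid cells KLF4 is known for its part in the development of inflammatory monocytes, in alternative activation of macrophages together with STAT6 and in a subset of IRF4-dependent cDC2, while KLF2 restrains the inflammatory activation of monocytes and macrophages and KLF6 promotes it.

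Levels are in CPM (counts per 1000000 reads, with the authors' scaling of library sizes), and a range in parentheses after a level or a fold is its 95% interval from counting error on estimated reads. These intervals do not cover variation between animals, sorts or libraries, and since each population had 1 library, no test could be made between them. A gene was counted as different between 2 libraries when log2(CPM + 1) differed by at least 1 (2-fold), given a level of 10 CPM or more in one of them. The libraries held about 55960000 (CD103int DC), 44425900 (cDC1), 44940500 (cDC2) and 63817500 (macrophage) estimated reads. In the table the name of the macrophage column begins differently from those of the 3 DC columns, for a reason not stated, and a batch, if that is what it marks, cannot be told apart from the population.

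The labels were checked against marker genes. Summed levels of 7 cDC1 markers were 303 CPM in CD103int DC, 1183 in cDC1, 341 in cDC2 and 339 in macrophages. Of these sums *Irf8* made 193, 704, 226 and 268 CPM in the same order. All 7 were nominally higher in cDC1 than in cDC2, 5 of them at least 2-fold (7.27% of all genes). *Batf3* (16.2, 16.1, 12.6 and 9.75 CPM) did not set cDC1 apart, and *Cadm1* was at 43.4, 87.6, 73.6 and 13.1 CPM. Summed levels of 10 macrophage markers were 2398, 685, 4038 and 3838 CPM in the same order. The library labelled cDC2 thus held as much of the macrophage markers as the macrophage library, with the complement gene *C1qa* at 228, 36.7, 572 and 105 CPM. The macrophage library stood out instead in 5 monocyte markers, at 1231, 976, 1279 and 5098 CPM, with *Ly6c2* at 132, 233, 236 and 1371 CPM. The markers of cDC2 were divided over the cDC2 label. Of 6 with at least 10 CPM in cDC1 or cDC2, 3 were nominally higher in cDC1 and 3 in cDC2. Those higher in cDC2 were *Itgam* (688, 36.7, 638 and 945 CPM), *Sirpa* (837, 399.7, 1062 and 1212) and *Mgl2* (807, 337, 368 and 120.4). The other 3 went against the label. *Cd209a* (78.8, 257, 31.5 and 68.9 CPM), *Clec10a* (65.2, 191, 44.2 and 57.7) and the factor gene *Irf4* (71.6, 152, 38.0 and 49.9) were highest in cDC1 and lowest in cDC2. Of 6 cDC2 markers with at least 10 CPM in cDC2 or macrophages, 5 were nominally lower in cDC2, by a median of -0.38 on the log2 scale. Of 5 markers of DC in general, *Zbtb46* was at 47.5, 152, 22.0 and 20.9 CPM and *Flt3* at 21, 179, 15.8 and 32.6, level in cDC2 and macrophages or lower in cDC2, while *Itgax* (1280.2, 769.7, 1438 and 516 CPM) was higher in each DC library than in macrophages. The names cDC2 and macrophage are used below as those of the labels.

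*Klf2* and *Klf4* were the only members of the 7 at least 2-fold below macrophages in cDC2 as well as in cDC1, and the DNA before their start sites is shown for that reason. The sequences are RefSeq's on GRCm38.p6, 5′ to 3′ on the strand of the gene, and end before the start sites of both RefSeq and GENCODE. Capitals mark matches to the MEF2 consensus and to the GC box GGGCGG on either strand.
Klf2 (chr8:72318812-72319032, plus strand): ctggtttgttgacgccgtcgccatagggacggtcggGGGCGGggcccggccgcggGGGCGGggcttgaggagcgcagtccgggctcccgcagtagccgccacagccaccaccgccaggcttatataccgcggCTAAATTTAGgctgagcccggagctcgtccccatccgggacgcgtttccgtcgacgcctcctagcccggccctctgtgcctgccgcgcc
Klf4 (chr4:55532476-55532725, minus strand): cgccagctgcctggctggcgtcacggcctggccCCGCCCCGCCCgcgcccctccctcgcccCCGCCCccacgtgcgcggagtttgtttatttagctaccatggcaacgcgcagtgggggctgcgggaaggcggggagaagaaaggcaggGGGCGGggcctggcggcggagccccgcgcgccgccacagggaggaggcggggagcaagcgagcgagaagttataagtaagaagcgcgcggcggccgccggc
RefSeq promoters were at hand for 6 of the 7 members, *Klf10* being the other one. In the 250 bases before the RefSeq start, searched on both strands, a MEF2 match stood in *Klf2* alone of these 6, as CTAAATTTAG with its first base at -118, and 2.92% of all 32851 promoters of that length held one (1.44% of the 12224 of genes in the table). The GC box was present in all 6, from 1 match in *Klf6* and *Klf7* to 6 in *Klf3*, and in 32.7% of all promoters (56.4% of those of genes in the table). The CACCC box, the letters that KLF proteins themselves bind, was present in *Klf2*, *Klf3*, *Klf7* and *Klf13* and in 52.0% of all promoters (57.1% of those of genes in the table). CACCC matches overlapped GC box matches in *Klf3* and *Klf13*. TGACG, part of the cyclic AMP response element, was present in *Klf2*, *Klf4* and *Klf13* (17.8% of all promoters, 26.6% of those of genes in the table), and CCAAT stood 4 times in *Klf6* and 2 times in *Klf13* (33.8%, and 35.4% of those of genes in the table). No match to TGANTCA (AP-1), TATAAA, the CArG box or the NF-kB consensus was found in the 6 windows. The searched windows end at the RefSeq start, and some run past the GENCODE start into the annotated gene. That holds for the whole window of *Klf7*, for 133 bases of that of *Klf3* and for 29 of that of *Klf2*. The CACCC match of *Klf2*, at -19, lies in this stretch. A match is a string of letters, not a measured binding site.

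*Klf2* (ENSMUSG00000055148.7, chromosome 8, 72319033 to 72321656, plus strand, GRCm38) stood at 76.3 (74.1 to 78.6) CPM in CD103int DC, 72.8 (70.4 to 75.2) in cDC1, 83.5 (80.9 to 86.1) in cDC2 and 201 (197 to 205) in macrophages. The 3 DC libraries lay close together and macrophages far above them. CD103int DC were 2.64-fold (2.54 to 2.73), cDC1 2.76-fold (2.66 to 2.87) and cDC2 2.41-fold (2.32 to 2.50) below macrophages. CD103int DC and cDC1 differed by little more than counting error, at a ratio of 1.05 (1 to 1.10), and the sign of that difference turned when the columns were rescaled to equal totals (-0.04 on the log2 scale). *Klf2* was the single member of the 7 at least 2-fold above each of the other libraries in macrophages, where 3.83% of 8724 genes were. This did not hold with columns rescaled to equal totals, where cDC2 minus macrophages came to -0.99.

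*Klf4* (ENSMUSG00000003032.8, chromosome 4, 55527143 to 55532466, minus strand) was at 188 (185 to 192) CPM in CD103int DC, 119.7 (117 to 123) in cDC1, 150.1 (147 to 154) in cDC2 and 371 (366 to 376) in macrophages. All 4 levels were apart beyond counting error, with macrophages highest and CD103int DC the highest of the DC. CD103int DC exceeded cDC1 1.57-fold (1.52 to 1.62) and cDC2 1.25-fold (1.22 to 1.29). They were 1.97-fold (1.93 to 2.02) below macrophages, which is just inside the 2-fold limit on log2(CPM + 1) at -0.98. The distance from macrophages was 3.10-fold (3.01 to 3.19) for cDC1 and 2.47-fold (2.41 to 2.54) for cDC2.

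*Klf6* (ENSMUSG00000000078.7, chromosome 13, 5861482 to 5870394, plus strand) was at 599.7 (593 to 606) CPM in CD103int DC, 409 (404 to 415) in cDC1, 687 (679 to 694) in cDC2 and 986 (978 to 995) in macrophages. Per length it led the 7 members in every library, at 137, 93.3, 156 and 225 CPM per kb of exon in the same order. The cDC1 library was the low one, 2.41-fold (2.37 to 2.45) below macrophages and 1.68-fold (1.65 to 1.71) below cDC2. CD103int DC stood between them, 1.46-fold (1.44 to 1.49) above cDC1 and 1.15-fold (1.13 to 1.16) below cDC2.

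*Klf10* (ENSMUSG00000037465.10, chromosome 15, 38291463 to 38300706, minus strand) encodes a factor first known as an early gene of the transforming growth factor beta (TGF-beta) response. It was at 56.8 (54.9 to 58.8) CPM in CD103int DC, 30.3 (28.7 to 31.8) in cDC1, 56.4 (54.3 to 58.6) in cDC2 and 104 (102 to 107) in macrophages. CD103int DC and cDC2 did not differ beyond counting error, at a ratio of 1.01 (0.956 to 1.06), and stood between a low cDC1 and a high macrophage library. The gap between cDC1 and macrophages, 3.45-fold (3.26 to 3.66), was the widest between any 2 libraries for any of the 7 members. CD103int DC were 1.88-fold (1.77 to 2) above cDC1 and 1.84-fold (1.76 to 1.92) below macrophages.

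*Klf3* (ENSMUSG00000029178.14, chromosome 5, 64803388 to 64832901, plus strand) encodes a repressor that binds CtBP. It was at 87.7 (85.3 to 90.2) CPM in CD103int DC, 68.3 (66.0 to 70.6) in cDC1, 94.4 (91.6 to 97.2) in cDC2 and 152 (148 to 155) in macrophages. The order was that of *Klf6*, and cDC1 were 2.22-fold (2.13 to 2.31) below macrophages. Per length it was the lowest of the 7 in CD103int DC (7.80 CPM per kb) and cDC2 (8.39), and above *Klf7* alone in cDC1 (6.07) and macrophages (13.5). This rank rests on the union of all annotated exons, 11243 bases over 9 transcripts for *Klf3* and 1847 over 1 for *Klf2*. The opposite-strand gene *Gm20033* overlaps its exons and was at 0.513, 0, 0.646 and 1.30 CPM.

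*Klf13* (ENSMUSG00000052040.10, chromosome 7, 63886351 to 63938915, minus strand), whose human counterpart was named for activating the chemokine gene CCL5 in T cells, varied least. It was at 254 (249.7 to 258) CPM in CD103int DC, 255 (251 to 259.8) in cDC1, 287 (282 to 292) in cDC2 and 409 (404 to 414) in macrophages. CD103int DC and cDC1 did not differ beyond counting error, at a ratio of 0.994 (0.970 to 1.02). The highest level was 1.61-fold the lowest, so that *Klf13* passed the 2-fold rule between no libraries.

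*Klf7* (ENSMUSG00000025959.13, chromosome 1, 64029447 to 64122282, minus strand), known for its part in the growth of neurons, was not highest in macrophages, unlike the other 6. It was at 97.7 (95.2 to 100.3) CPM in CD103int DC, 43.5 (41.6 to 45.3) in cDC1, 87.8 (85.1 to 90.5) in cDC2 and 46.7 (44.9 to 48.6) in macrophages. CD103int DC and cDC2 formed a high pair, cDC1 and macrophages a low one. As deposited, cDC1 was the lowest library, as it was for *Klf2*, *Klf3*, *Klf4*, *Klf6* and *Klf10*. CD103int DC were 2.25-fold (2.14 to 2.36) above cDC1, 1.11-fold (1.07 to 1.16) above cDC2 and 2.09-fold (2 to 2.19) above macrophages. The ratio of cDC1 to macrophages was 0.930 (0.878 to 0.986), and this order turned with columns rescaled to equal totals (0.26 on the log2 scale). Antisense genes overlap its exons, of which *Gm26649* was at 2.36, 0, 1.98 and 0.864 CPM. Since the strand setting of the counting is not given in the sources used here, reads of *Klf7* or *Klf3* and their antisense genes cannot be told apart with certainty.

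**Figure D1:**
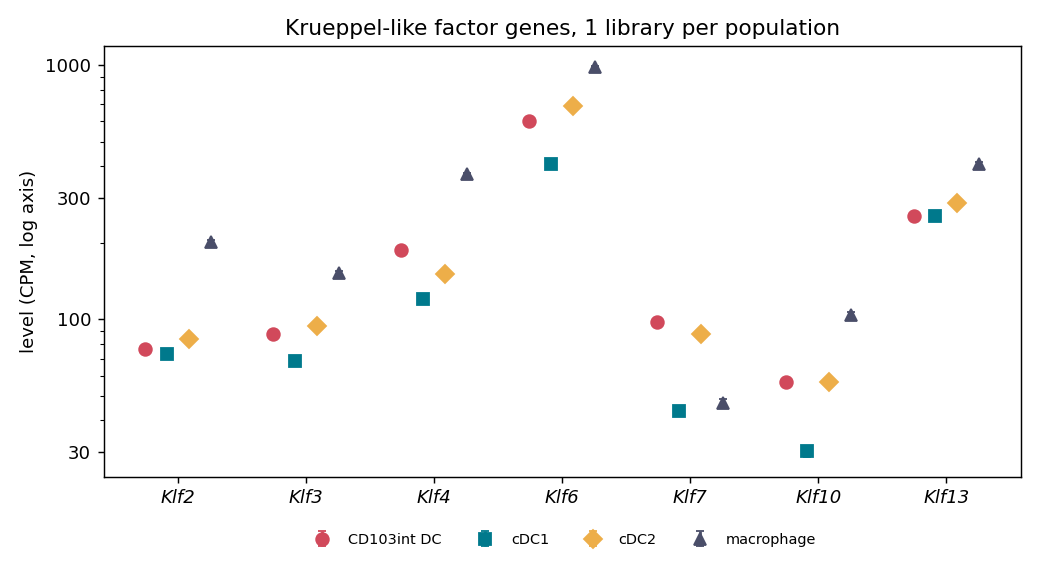
Level of each of the 7 genes (CPM, log axis) in the CD103int DC, cDC1, cDC2 and macrophage libraries, 1 point per library, with bars for the 95% interval of counting error, mostly smaller than the points. Macrophages are highest for 6 genes, while for *Klf7* CD103int DC (97.7 CPM) and cDC2 (87.8 CPM) lie above cDC1 (43.5 CPM) and macrophages (46.7 CPM).

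In bulk libraries a lower level can come from fewer cells of a type or from less RNA per cell, and these cannot be told apart. Set against cDC2, CD103int DC had no member past the 2-fold rule (0 of 7 higher and 0 of 7 lower, where 1.56% and 0.665% of 8119 genes were) and none past 1.5-fold (4.22% and 2.99% of genes). The ratios ran from 0.873 (0.860 to 0.887) for *Klf6* to 1.25 (1.22 to 1.29) for *Klf4*. The members' median difference was -0.10 on log2(CPM + 1), and that of all genes 0.02.

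Set against cDC1, CD103int DC had 1 of 7 members at least 2-fold higher, *Klf7*, and 0 lower, where 9.16% of 8443 genes were higher and 5.46% lower. The median difference was 0.55, and 0.03 over all genes. With the columns rescaled to equal totals of protein-coding genes, *Klf7* was just inside the limit (0.98), and over all genes 624 were higher and 636 lower in place of 773 and 461.

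Set against macrophages, CD103int DC had 1 of 7 members at least 2-fold lower, *Klf2*, and 1 higher, *Klf7*, where 8.31% of 8254 genes were lower and 4.35% higher. Below macrophages by any amount were 6 of 7 members, and 4563 of the 8254 genes. The median difference was -0.78, and -0.07 over all genes. Both calls were kept under each rescaling of the columns (-1.13 to -1.41 for *Klf2* and 1.03 to 1.31 for *Klf7*).

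Among the other pairs, cDC1 against macrophages had the most members past the rule. In cDC1, 5 of 7 were at least 2-fold lower (*Klf2*, *Klf3*, *Klf4*, *Klf6* and *Klf10*), where 15.8% of 8468 genes were, and 0 were higher (9.21%), with a median difference of -1.27 against -0.09 over all genes. In cDC2 against macrophages, 2 of 7 were lower (*Klf2* and *Klf4*; 6.01% of 8141 genes) and 0 higher (1.78%), with a median of -0.68 against -0.09. In cDC1 against cDC2, 0 of 7 passed in either direction (7.27% of 8459 genes were higher and 9.56% lower), although all 7 were nominally lower in cDC1, by a median of -0.46 against -0.01. *Klf7* lay just inside the limit in that pair, at 43.5 CPM in cDC1 and 87.8 CPM in cDC2. These comparisons share libraries, so they are not separate evidence of each other.

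**Figure D2:**
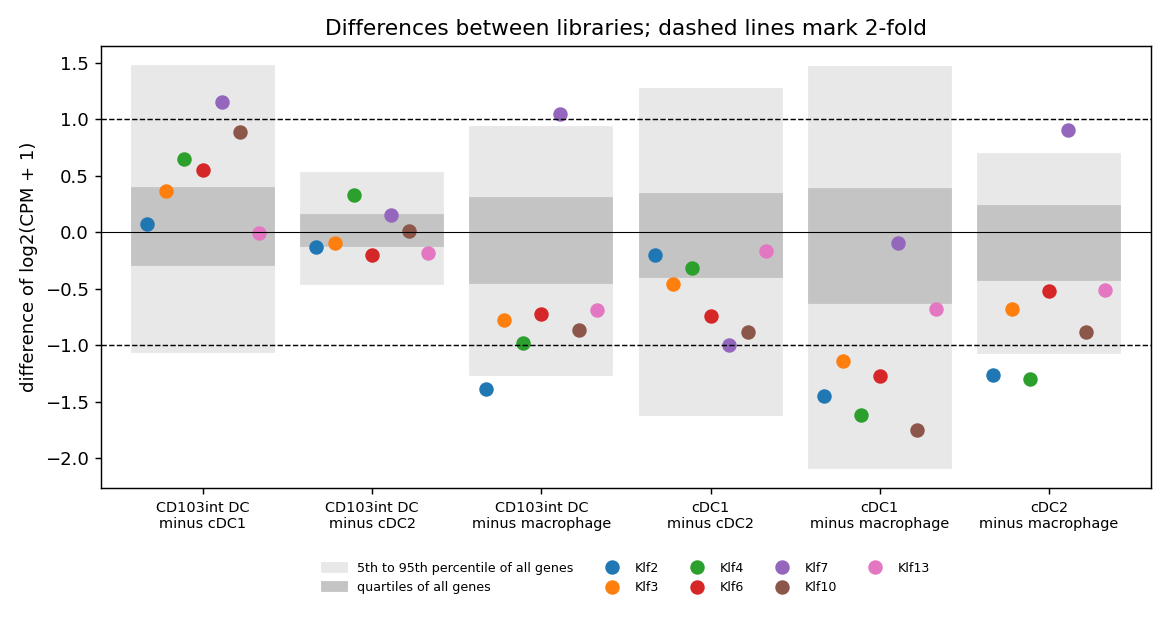
Difference of log2(CPM + 1) for the 7 genes in the 6 pairs of libraries, over grey bands for the quartiles and the 5th to 95th percentile of all genes with at least 10 CPM in either library. Against macrophages *Klf2* lies outside the wide band in CD103int DC (-1.39) and cDC2 (-1.26), *Klf4* in cDC2 (-1.30), and *Klf7* above it in CD103int DC (1.05) and cDC2 (0.90).

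The distance from macrophages changed when the columns were scaled by totals. Scaling by the median ratio over genes moved the log2 differences by only -0.02 in CD103int DC, -0.01 in cDC1 and -0.02 in cDC2. No member call changed with it. The deposited macrophage column summed to 1169346 CPM, against 974649 (CD103int DC), 905670 (cDC1) and 968810 (cDC2). Rescaling to equal totals moved the log2 differences from macrophages up by about 0.26 in CD103int DC, 0.37 in cDC1 and 0.27 in cDC2. The medians over all genes then became 0.18, 0.27 and 0.17, in place of -0.07, -0.09 and -0.09. On that scale 6 of 7 members still lay below macrophages in each DC library, and *Klf7* above in each. At least 2-fold lower in cDC1 were then 3 (*Klf2*, *Klf4* and *Klf10*) in place of 5, and in cDC2 1 (*Klf4*) in place of 2, with *Klf7* now at least 2-fold higher in cDC2 (1.16). Over all genes, the counts higher and lower than macrophages became 647 and 401 in place of 359 and 686 for CD103int DC, 1472 and 887 in place of 780 and 1339 for cDC1, and 352 and 230 in place of 145 and 489 for cDC2. With totals of protein-coding genes they were 535 and 470, 1491 and 895, and 274 and 286. For cDC1 against cDC2 that last scaling gave 823 and 676 in place of 615 and 809, and all 7 members remained nominally lower in cDC1, *Klf13* at -0.002.

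**Figure D3:**
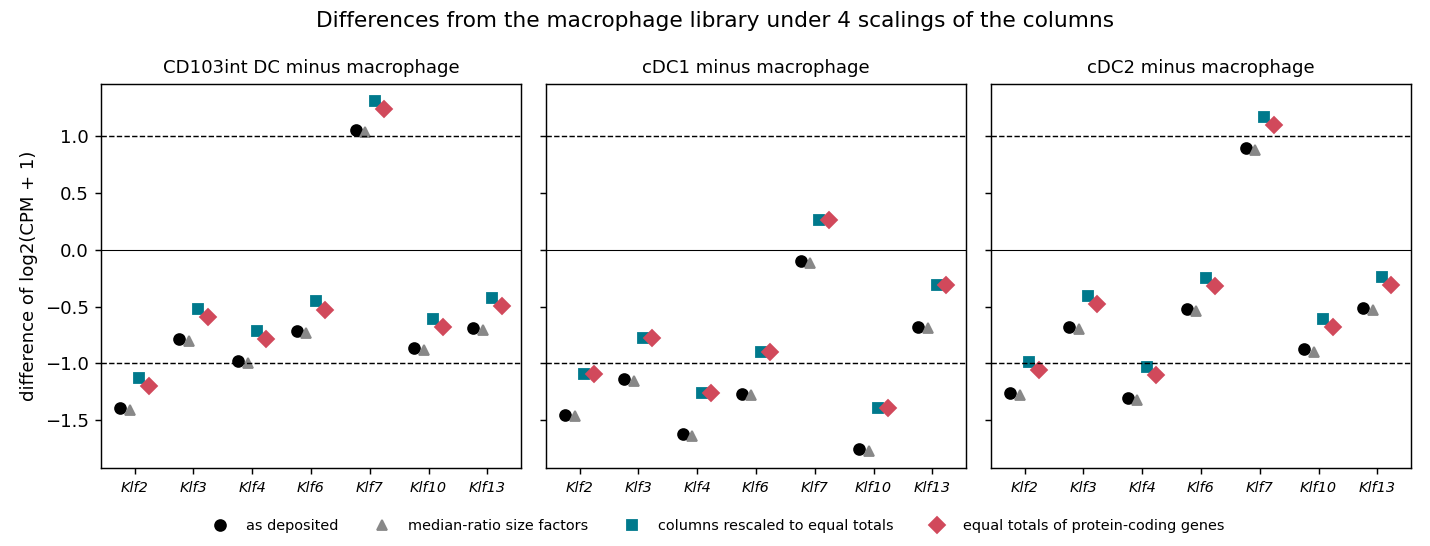
Difference of log2(CPM + 1) from the macrophage library for each of the 7 genes in CD103int DC, cDC1 and cDC2, with columns as deposited and under 3 other scalings; dashed lines mark 2-fold. Equal totals move all points up by about the same amount, and *Klf7* in cDC1 is the single point group that crosses 0 (-0.10 as deposited, 0.26 with equal totals).

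Of 10 other Krueppel-like factor genes looked for, 6 were in the table and 3 of these reached 10 CPM. *Klf9*, a glucocorticoid and thyroid hormone responsive gene, was at 20.2 CPM in CD103int DC, 7.73 in cDC1, 12.7 in cDC2 and 21.2 in macrophages. CD103int DC were thus 2.62-fold (2.33 to 2.95) above cDC1 and did not differ from macrophages beyond counting error (ratio 0.955, 0.879 to 1.04). *Klf11*, the relative of *Klf10*, had another order, at 13.4, 27.5, 15.2 and 33.1 CPM, so that CD103int DC and cDC2 were the low libraries. *Klf16* was at 28.3, 28.6, 22.1 and 19.9 CPM and had macrophages lowest. *Klf12*, a CtBP-binding repressor, was highest in cDC1, at 0.209 (0.108 to 0.365), 2.87 (2.42 to 3.39), 0.151 (0.0607 to 0.311) and 0.628 (0.431 to 0.871) CPM, below the 10 CPM minimum. *Klf8*, also a CtBP-binding repressor, was at 5.56, 9.28, 3.64 and 3.85 CPM.

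Among 9 Sp factor genes, 4 were in the table and 0 differed at least 2-fold between any libraries. By pair and direction, 0.665% to 15.8% of all genes did, so 0 of so few genes says little. *Sp1*, a general activator at GC boxes, was at 133, 159.7, 134 and 181 CPM and *Sp3* at 89.3, 99.5, 84.8 and 142 CPM. The DC library nearest to macrophages in these was cDC1, the one farthest from macrophages for *Klf10*, *Klf6* and *Klf4*. Per length, *Klf6*, *Klf4*, *Klf2* and *Klf13* stood above *Sp1* in each library, for example at 137, 61.8, 41.3 and 33.7 against 16.1 CPM per kb in CD103int DC.

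**Figure D4:**
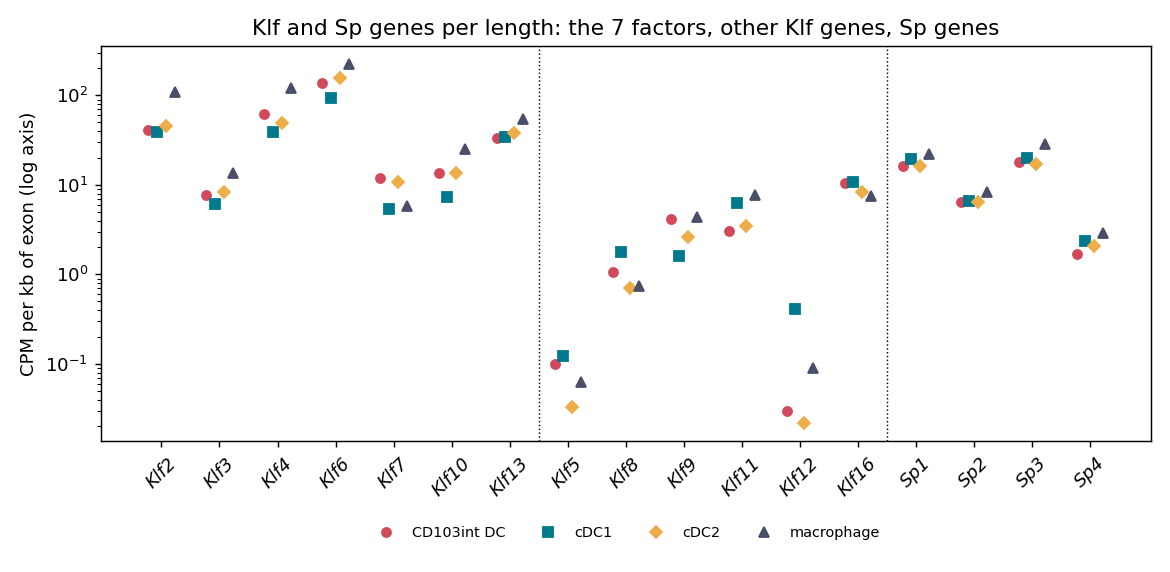
CPM per kb of exon (log axis) of the 7 genes, the 6 other Klf genes and the 4 Sp genes in the table, 1 point per library of CD103int DC, cDC1, cDC2 and macrophages. *Klf6* is the highest of all in each library (137, 93.3, 156 and 225 CPM per kb), and *Klf12* in cDC2 the lowest (0.0216).

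Genes acting upstream of or with the factors were compared by lists. The kinase cascade from MEKK2 and MEKK3 through MEK5 and ERK5 to the MEF2 factors drives *Klf2* and *Klf4* transcription in endothelial cells. Its 7 genes were all in the table, and against macrophages 0 were at least 2-fold lower in CD103int DC and in cDC2 (8.31% and 6.01% of all genes) and 1 in cDC1, *Mef2a* (15.8%). *Mef2a* was at 108, 101, 126 and 213 CPM, highest in macrophages like *Klf2*. *Mef2c* was not, at 28.9, 82.1, 28.7 and 51.5 CPM in CD103int DC, cDC1, cDC2 and macrophages. It was the 1 gene of the list at least 2-fold lower in CD103int DC than in cDC1 (5.46% of all genes), and 0 were higher (9.16%).

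Of 10 cofactor genes, the acetyltransferase gene *Kat2b* (PCAF) differed most, at 33.0, 21.9, 33.2 and 75.6 CPM, at least 2-fold above every DC library in macrophages. *Ctbp2*, a corepressor bound by KLF3, was at 41.5, 20.5, 38.0 and 46.4 CPM and *Wwp1*, a ubiquitin ligase that acts on KLF2 and KLF5, at 17.6, 8.81, 19.6 and 21.8 CPM, both lowest in cDC1. In CD103int DC 1 of the 10 was at least 2-fold lower than in macrophages (8.31% of all genes). Against cDC1, 0 of 10 were higher (9.16% of all genes) and 0 lower (5.46%). Against cDC2, 0 were higher (1.56%) and 0 lower (0.665%). *Ctbp2* lay just inside the limit against cDC1, at 0.98 on log2(CPM + 1) and a ratio of 2.02 (1.88 to 2.18), and *Wwp1* was at 0.92.

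Of 7 genes of TGF-beta signalling, the receptor gene *Tgfbr1* was at 106, 46.5, 225 and 219 CPM. In CD103int DC it was 2.28-fold the cDC1 level but less than 0.5 of the cDC2 and macrophage levels (ratios 0.470 and 0.484), while *Klf10* was level between CD103int DC and cDC2. *Smad3* was at 18.8, 14, 19.0 and 37.3 CPM, in nearly the order of *Klf10*. In CD103int DC, 2 of the 7 were at least 2-fold lower than in macrophages (8.31% of all genes), 1 was lower than in cDC2 (0.665%) and 1 higher than in cDC1 (9.16%).

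Of genes linked to KLF2 in other cells, *Thbd* (thrombomodulin), which KLF2 activates in endothelium, was at 18.8, 2.89, 24.3 and 125 CPM, highest in macrophages like *Klf2*. *S1pr1*, a KLF2 target in T cells, was below 1 CPM in each library (0.226, 0.591, 0.194 and 0.916). Of the 4 such genes taken from the table, 1 was at least 2-fold lower in CD103int DC than in macrophages (8.31% of all genes) and 0 higher (4.35%).

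Genes linked to KLF4 in alternatively activated macrophages or in cDC2 did not share 1 order. *Chil3* was at 78.5, 1.33, 83.4 and 788 CPM, highest in macrophages, whereas *Retnla* (142, 0, 14 and 29.9 CPM) and *Mgl2* (807, 337, 368 and 120.4 CPM) were highest in CD103int DC. Of the 9 genes, 3 were at least 2-fold higher and 1 lower in CD103int DC than in macrophages (4.35% and 8.31% of all genes), and 6 were higher and 1 lower than in cDC1 (9.16% and 5.46%). Against cDC2, where *Klf4* was 1.25-fold higher, 4 of the 9 were at least 2-fold higher and 0 lower (1.56% and 0.665%).

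Immediate early genes, which are switched on within minutes of a stimulus and also during tissue dissociation, were lowest in cDC1 and highest in macrophages as a sum, like 5 of the 7 factors, but not gene by gene. All 14 of the list were in the table, and their summed level was 8154 CPM in CD103int DC, 4639 in cDC1, 7970.1 in cDC2 and 12057 in macrophages. In cDC1, 9 of 14 were at least 2-fold lower than in macrophages (15.8% of all genes) and 1 higher (9.21%), with a median of -1.18 beside -1.27 for the 7 factors and -0.09 over all genes. In CD103int DC, 1 of 14 was at least 2-fold lower than in macrophages (8.31%) and 0 higher (4.35%), with 10 of 14 nominally lower and 4 nominally higher. The lower one was *Nr4a1*, at 418, 318, 409 and 1236 CPM. *Fos* was at 1287, 821, 1432 and 2059.6 CPM. Other orders were those of *Egr1* (166, 57.4, 97.4 and 113 CPM) and *Egr2* (195, 57.6, 153 and 140.3), highest in CD103int DC, and of *Egr3* (18.3, 34.8, 8.11 and 13.2), highest in cDC1. Heat shock genes, another sign of handling, did not share this order, with sums of 1116, 1362, 1290.1 and 1088 CPM over 6 genes. The part of handling in the levels of the factors was not tested.

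Monocyte markers were highest in macrophages, as *Klf2* and *Klf4* were, but did not share 1 order among the DC libraries. Of 5 markers, all in the table, 4 were at least 2-fold lower in CD103int DC than in macrophages (8.31% of all genes), with *Vcan* at 60.6, 1.43, 41.4 and 685 CPM. Against cDC1, 3 of the 5 were at least 2-fold higher in CD103int DC (*Vcan*, *Chil3* and *Ccr2*, the last at 832, 254, 701 and 978 CPM; 9.16% of all genes) and 1 lower (5.46%), *Plac8*, at 128, 486, 218 and 1276 CPM. The part of monocyte content in the levels of the factors was not tested. Endothelial and T cells are known to express much *Klf2*. Of 7 endothelial markers 4 were in the table, with sums of 111, 478, 174 and 305 CPM, of which *Kdr* made 63.9, 425, 110.2 and 239. The others did not share its order, with *Pecam1* at 35.3, 29.7, 54.2 and 57.5 CPM, *Cdh5* at 1.27, 16.6, 1.49 and 2.55, and *Vwf* at 10.1, 6.40, 7.93 and 5.81. The 8 T and NK cell markers summed to 1.5, 17.5, 19.1 and 6.58 CPM, lowest in CD103int DC, with *Cd3e* at 0.0174, 2.24, 1.79 and 0.715 CPM. The part of endothelial or T cell content in the levels of *Klf2* was not tested. Of the other cell types, 2 neutrophil markers in the table summed to 35.4, 9.99, 63.9 and 158 CPM, nearly all from *Csf3r*, which monocytes also express, 5 fibroblast markers to 11.7, 10.1, 45.4 and 22.3 CPM, 3 epithelial markers to 199.8, 425, 120.1 and 89.9 CPM, mostly from *Cdh1*, and 4 plasmacytoid DC markers to 129, 665, 165 and 254 CPM. The 1 B cell marker in the table, *Cd79b*, was at 1.43, 2.77, 3.26 and 3.68 CPM.

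**Figure D5:**
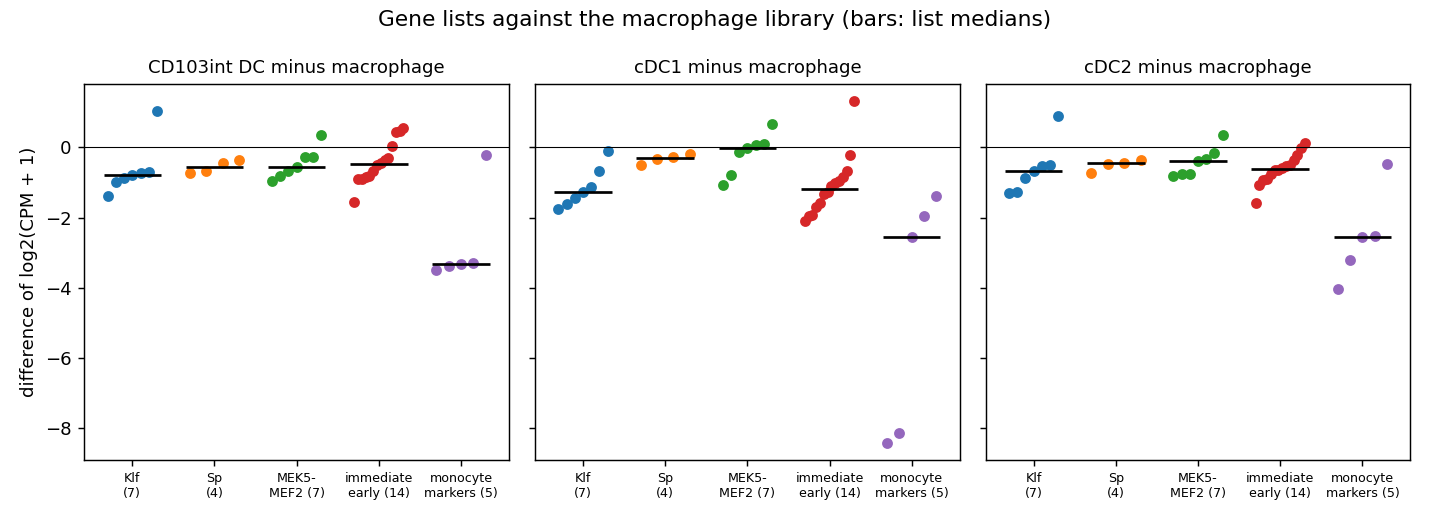
Difference of log2(CPM + 1) from the macrophage library for each gene of 5 lists, the 7 factors, 4 Sp genes, 7 genes of the MEK5 to MEF2 cascade, 14 immediate early genes and 5 monocyte markers, in CD103int DC, cDC1 and cDC2; bars are list medians. In cDC1 the factors (median -1.27) and the immediate early genes (median -1.18) lie at about the same distance below macrophages, and 4 of 5 monocyte markers lie below every factor in CD103int DC and cDC2.

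For each of the 6 members whose log2(CPM + 1) ranged over at least 1, the 3 genes with the nearest profile were found among 8428 others with at least 10 CPM in any library. Likeness was the root mean square difference of log2(CPM + 1), centred on each gene's mean over the 4 libraries. For *Klf6* these were *Socs3* (0.030), *Fos* (0.035) and *Slc26a2* (0.038), with *Socs3* at 291, 208, 333 and 476 CPM. For *Klf2* they were *Slc25a22* (0.051), *Mapkapk2* (0.052), at 252, 238, 285 and 619 CPM, and *AW549877* (0.061). For *Klf4* they were *Ntng2* (0.055), *Scarna6* (0.055) and *Errfi1* (0.062), the last at 41.9, 25.4, 31.0 and 74.0 CPM. *Klf10* was nearest to *Osgin2* (0.035), *Fbxw17* (0.036) and *Cers6* (0.037), and *Klf3* to *Fndc3b* (0.013), *Sirt1* (0.015) and *Bcl2l11* (0.016), the last at 101, 77.8, 106 and 170.2 CPM. *Klf7* was nearest to *Tusc3* (0.053), at 28.5, 11.1, 25.2 and 12.4 CPM, then to *Klc4* (0.058) and *Retsat* (0.092). With 4 libraries many genes lie close to any profile.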

How the data were processed

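RNA of 4 sorted populations was measured with 1 library each, grouped by the labelled cell type, and columns were matched to the labels by name. The authors deposited 1 table with an expression signal per gene, which the table's name gives as CPM with TMM scaling, filtered by a rule that is not stated. For the aligner, the counting program, its strand setting and the build, nothing is stated in the sources used here. All 13976 identifiers matched GENCODE M21 (GRCm38), which gave coordinates, gene types and exon lengths (union of all exons). Levels per length depend on the annotated transcripts, and which of them were expressed was not determined.

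In each column the values were multiples of 1/100 of a step, and 70.6% to 79.0% were whole multiples within 0.001 of it. The step (0.0174 CPM in CD103int DC, 0.0204 in cDC1, 0.0216 in cDC2, 0.0183 in macrophages) was taken as 1 read. No count test was run, as the reads are estimates and no group had a replicate. Intervals are Poisson (levels) and exact binomial (ratios) at 95%, on reads rounded to whole numbers. They cover counting error only, and PCR copies of a molecule may be counted as separate reads. Ratios are of CPM without an added 1.

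The members and all lists were chosen with earlier results of these data known, 1 listed gene is not reported here and was left out of its lists, and the list genes named had to pass the 2-fold rule in some pair, at most 4 a list, with exceptions (*S1pr1*, *Klf8*, *Klf12*, *Klf16*, *Sp1*, *Sp3*, *C1qa*, *Kdr*, *Cd3e*, *Cd79b*, the cDC2, DC and endothelial markers and the antisense genes) chosen after their values were seen. Another pseudocount, 3 other scalings, another minimum and other fold limits were tried. Python 3.11.15, pandas 2.3.3 and SciPy 1.17.1 were used. The calls were run on simulated data with 4-fold changes and counting error only. That checks the code and not calls near the 2-fold limit or variation between libraries.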

Additional observations from a re-analysis of the deposited data

How the results depend on the processing

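No paired analysis was possible because each population had 1 library. For the same reason no replicate was left out. Of 168 member differences recomputed under another pseudocount or scaling, 98 moved by less than counting error and 70 by more, and no difference of at least 2-fold changed sign. Smaller differences that changed sign were those of *Klf2* (CD103int DC minus cDC1), *Klf7* (cDC1 minus macrophages) and *Klf10* (CD103int DC minus cDC2, 0.01 as deposited).

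Counts of members (as reported in parentheses) depended on the limit. At 4-fold every count was 0, and by pair and direction only 0.0123% to 5.57% of all genes passed. At 1.5-fold, CD103int DC had 3 higher than cDC1 (1) and 6 lower than macrophages (1), where 17.2% and 19.0% of all genes were, cDC1 had 3 lower than cDC2 (0; 17.7%), and cDC2 had 1 higher (0; 7.42%) and 4 lower (2; 16.9%) than macrophages. Set apart by 1.5-fold were 4 members above the others in macrophages (1; 10.6% of all genes) and 1 below in cDC1 (0; 12.7%). A pseudocount of 0.1 made *Klf7* 1 lower member in cDC1 against cDC2 (0). Equal totals gave 3 lower in cDC1 (5), 1 higher (0) and 1 lower (2) in cDC2 against macrophages, and 0 set apart in macrophages (1). Equal totals of protein-coding genes gave 0 higher in CD103int DC against cDC1 (1), 3 lower in cDC1 (5) and 1 higher in cDC2 (0) against macrophages.

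Counts of all genes, higher and lower, at a minimum of 1 CPM were 1303 and 876 (CD103int DC against cDC1), 247 and 125 (against cDC2), 652 higher (against macrophages), 1042 and 1376 (cDC1 against cDC2), 1473 higher (cDC1 against macrophages) and 311 higher (cDC2 against macrophages). At 4-fold they were, in the order of these 6 pairs, 235 and 155, 16 and 1, 69 and 108, 198 and 304, 218 and 472, and 20 and 46. At 1.5-fold they were 1448 and 1020, 343 and 243, 1006 and 1569, 1262 and 1501, 1553 and 2242, and 604 and 1377. Equal totals gave 647 and 401, 1472 and 887, and 352 and 230 against macrophages in CD103int DC, cDC1 and cDC2, and totals of protein-coding genes gave 1491 higher in cDC1 and 274 and 286 in cDC2. At a pseudocount of 0.1 the nearest genes became *Mocos*, *Rnf215* and *Socs3* for *Klf6*, *Ntng2*, *Errfi1* and *Ripk2* for *Klf4*, and *Klc4*, *Timm10* and *Tusc3* for *Klf7*, while *Klf2*, *Klf3* and *Klf10* kept their 3 genes in another order. Depth did not limit the members, since the lowest value, *Klf10* in cDC1, stood for 1484 estimated reads, but variation between animals or sorts is unknown.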
